A study of Mus musculus with 2 samples.

Results

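Replication-dependent histone genes were taken as all gene symbols of the count files that begin with Hist and a cluster number from 1 to 4 followed by h, and that had at least 10 unique molecular identifiers (UMIs, each counting 1 captured RNA molecule) summed over both libraries. Of 67 such symbols among 32285 genes, 62 qualified: 6 encode linker histone H1, 16 encode H2A, 16 H2B, 12 H3 and 12 H4. The 5 others were Hist1h2aa, Hist1h2ba and Hist1h2bq, each at 0 UMIs, and Hist1h4m and Hist2h2aa2, each at 1 UMI. Together the 62 members held 242869 UMIs, 0.151% of all UMIs, and H2A genes held 48.3% of these. In the mm10 annotation 50 members lie on chromosome 13, 9 on chromosome 3, 2 on chromosome 11 and 1 on chromosome 6.

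The study profiled single cells of the mouse cochlea at E16.5, a stage of embryonic development. The wild-type library and the mutant library were each made from 8 pooled cochleae of mixed 129/SvEv and C57BL/6N background. The mutant genotype was Emx2Cre;Ptch1f/f: Cre driven from the homeobox gene Emx2 acts on floxed copies of Ptch1, which encodes the Hedgehog receptor that keeps the pathway off without ligand. With 1 library for each genotype there was no test, the intervals given cover counting error only, and the genotype and the library cannot be told apart.

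Replication-dependent histone genes supply the histones that package newly made DNA, and their mRNAs are abundant during DNA synthesis. Most of these mRNAs end not in a poly(A) tail but in a short stem-loop that is bound by the stem-loop binding protein Slbp, which takes part in their processing, translation and decay. Some histone genes can also give polyadenylated mRNA, and the library method used here starts from poly(A) RNA. H2A, H2B, H3 and H4 form the nucleosome core, whereas H1 binds the DNA that enters and leaves it.

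The shared 3′ end is shown first, because it is what the members have in common and because a 3′ library reads the ends of transcripts. A stem-loop of 16 bases, matched as the arm GGNNCT, the loop NTTN and the arm AGNNCC in a row on the transcript strand, was found in an annotated transcript of 42 of the 62 members. A poly(A) signal, AATAAA or ATTAAA, stood in the last 60 bases of an annotated transcript of 16 members, and 13 members had both. Bases past an annotated end were not searched. Some members without a match had short annotations, such as 381 bases for Hist1h2bl and 312 bases for Hist1h4k. A missing match is therefore not evidence that a gene lacks the stem-loop or the signal. The following mm10 stem-loops, read 5′ to 3′ with the 16 matching bases in capitals, belong to the member with the largest ratio between the libraries, to its near-copy, to a pair of members that were lower in the mutant library, and to a member that did not follow the cell cycle.
Hist1h2ap (chr13:21833026-21833051, minus strand): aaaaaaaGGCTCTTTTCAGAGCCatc
Hist1h2ao (chr13:21810891-21810920, plus strand): aaaaaaaGGCTCTTTTCAGAGCCatccaca
Hist1h2ab (chr13:23751565-23751594, plus strand): aaacaaaGGCTCTTTTCAGAGCCacccaca
Hist1h4d (chr13:23581943-23581972, plus strand): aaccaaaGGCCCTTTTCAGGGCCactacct
Hist3h2ba (chr11:58949342-58949371, plus strand): acccaaaGGCTCTTTTCAGAGCCaccttcc
The capitals were identical in Hist1h2ap, Hist1h2ao, Hist1h2ab and Hist3h2ba. Hist1h2ap was annotated to end 3 bases after the stem-loop and Hist1h2ab 11 bases after it, each without a poly(A) signal in that window, whereas the annotated end of Hist3h2ba lay 169 bases after it and held one.

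The ends of many members are near-copies of one another, so the gene to which a read was assigned is uncertain for them. Of the 60-base words in the last 300 bases of Hist1h2ap, 100% also occurred in another annotated gene, the closest being Hist1h2ao, and 22 other genes shared at least 1 word. Hist1h2ao, whose own end is 88.4% contained in Hist1h2ap, had only 16 UMIs in the wild-type library and 23 in the mutant library, against 5797 and 64628 for Hist1h2ap. All such words of Hist1h1e occurred in transcripts of Hist1h2be, and those of Hist1h3e and Hist1h3f were identical in these words, so their values are uncertain in the same way. Hist1h1b, Hist1h4d, Hist3h2a and Hist3h2ba were among the 19 members whose last 300 bases shared no word with any other gene. Hist1h2be was also among the 19, since its own last bases differ from the stretch that holds the words of Hist1h1e.

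Cells were grouped by clustering without the histone and cell cycle genes, and clusters were named from marker lists. After filters, 6108 wild-type and 8670 mutant barcodes remained, of files with 61130806 and 100135532 UMIs and medians of 7333 and 6524.5 UMIs per barcode; the smallest barcode held 3352 UMIs in the wild-type file and 500 in the mutant file. The file headers name Cell Ranger 6.0.0 for the wild-type and 5.0.1 for the mutant library, and the labels name different kit versions. The libraries shared 25 barcode sequences, 17 of them after filters. The 8 classes compared had at least 50 barcodes in each library: epithelium-like (717 wild-type and 1519 mutant barcodes), mesenchyme-like (3437 and 5663), glia-like (437 and 450), neuron-like (358 and 68), endothelium-like (78 and 119), pericyte- or smooth-muscle-like (92 and 94), macrophage-like (69 and 170) and erythroid-like (111 and 51). Ptch1 itself stood at 38.4 CPM (UMIs scaled to a common total for each class and library) in wild-type and 194 CPM in mutant epithelium-like barcodes, and its transcriptional readout Gli1 at 0.594 and 20.7 CPM; a 3′ read can lie outside a deleted part, so the level of Ptch1 does not check the deletion. Emx2 stood at 12.0 and 33.6 CPM there and between 0 and 1.21 CPM in the other compared classes.

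Some barcodes went against their class. Lineage genes of other classes exceeded a fixed share of the UMIs in 234 of 358 wild-type neuron-like barcodes against 3 of 68 mutant ones, and in 80 of 111 wild-type erythroid-like barcodes against 2 of 51. Neurons have left the cell cycle, yet 172 of 358 wild-type neuron-like barcodes were called cycling, against 2 of 67 in the mutant library. For these reasons the ratios of the neuron-like and erythroid-like classes are given as values only. The same measure gave 34.3% of wild-type and 27.1% of mutant epithelium-like, 13.5% and 20.4% of mesenchyme-like, 42.8% and 40.9% of glia-like and 11.6% and 31.2% of macrophage-like barcodes. Different clusters held most of the epithelium-like class in each library: a cluster led by Smoc2 and Otoa held 404 of the 717 wild-type barcodes, whereas clusters led by Oc90 and Lor (465), by Adamts19 and Glb1l2 (368) and by Tecta and Clic6 (366) held most of the 1519 mutant ones. Unnamed clusters held 764 wild-type and 513 mutant barcodes. Nearest to epithelium scored a cluster of 5 wild-type and 510 mutant barcodes of low depth and a cluster of 161 wild-type and 1 mutant barcodes. Emx2 stood at 24.7 CPM in the unnamed wild-type and at 3.93 CPM in the unnamed mutant barcodes. The epithelium-like class can therefore lack epithelial barcodes of either library.

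Hist1h2ap (ENSMUSG00000094777, a single-exon H2A gene at chr13:21833026-21833507 on the minus strand in mm10) was the most abundant member over both libraries and was several-fold higher in the mutant library in most classes. In epithelium-like barcodes it stood at 38.6 CPM (95% exact Poisson interval 34.5 to 43.0) in wild type and at 591 CPM (580 to 602) in the mutant, a 15.3-fold difference. In mesenchyme-like barcodes it stood at 123 CPM (119 to 127) and 694 CPM (686 to 701), a 5.65-fold difference. In glia-like barcodes it stood at 139 CPM (126 to 153) and 881 CPM (853 to 910), a 6.35-fold difference. The intervals of the libraries did not overlap in any of these 3 classes. The smaller classes showed the same direction: 85.8 against 812 CPM in endothelium-like, 152 against 507 CPM in pericyte- or smooth-muscle-like and 20.9 against 240 CPM in macrophage-like barcodes. In neuron-like barcodes the levels were 46.4 CPM (40.1 to 53.3) and 35.0 CPM (26.5 to 45.4), and in erythroid-like barcodes 35.4 CPM (26.5 to 46.5) and 25.2 CPM (19.6 to 31.8), with overlapping intervals. Hist1h2ap thus made up 4.80%, 6.44% and 5.83% of all member UMIs in wild-type epithelium-, mesenchyme- and endothelium-like barcodes, and 41.2%, 43.0% and 47.1% in the mutant ones.

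**Figure D1:**
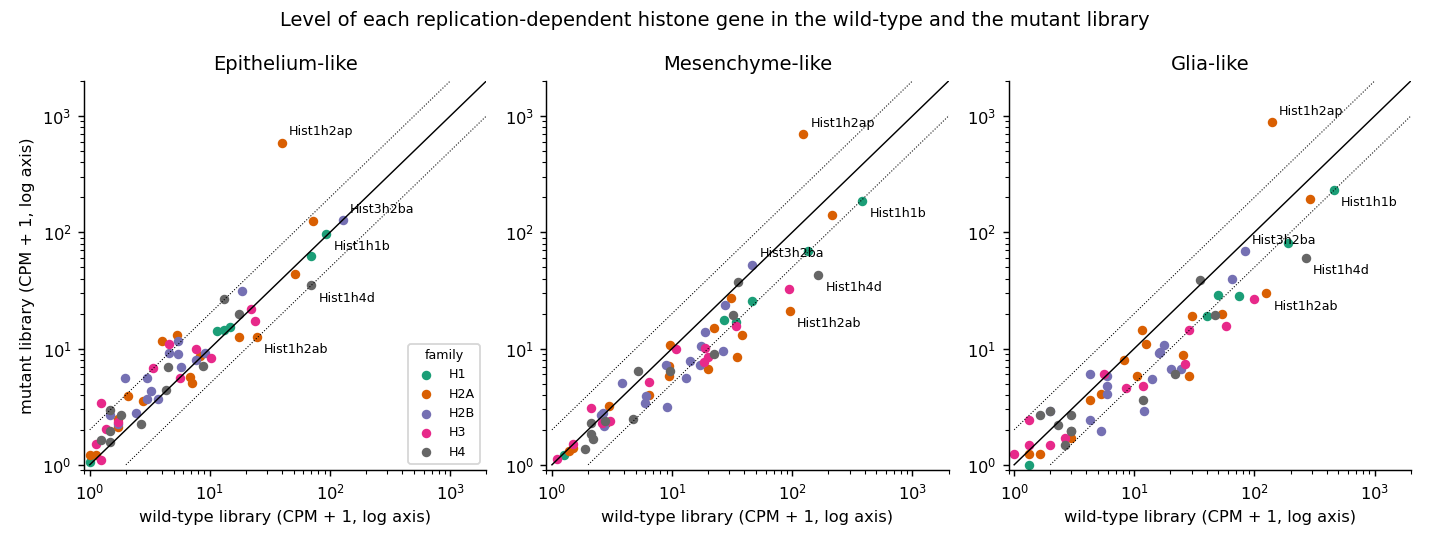
Level of each of the 62 histone genes in the wild-type library (horizontal axis, CPM + 1, log axis) and in the mutant library (vertical axis, CPM + 1, log axis) for 3 cell classes, 1 point per gene coloured by family; the solid line marks equal levels and the dotted lines a 2-fold difference. Hist1h2ap lies above the upper dotted line in all 3 panels, while most other genes lie below the solid line in mesenchyme-like and glia-like barcodes.

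Most other members went the opposite way in mesenchyme-like and glia-like barcodes. Ratios are given as log2 of the mutant over the wild-type level with 1 CPM added to each, over genes with at least 10 UMIs in the class, and a gene counts as higher or lower at 2-fold or more. In mesenchyme-like barcodes the median over 61 members was -0.58, against 0.04 over all 16773 genes, and 49 of the 61 lay below 0 (43.5% of all genes); 16 were lower (0.715% of all genes) and 1, Hist1h2ap, was higher (0.429% of all genes). In glia-like barcodes the median over 50 members was -0.82, against 0.01 over all genes, with 43 below 0 (48.8% of all genes); 20 were lower (1.5% of all genes) and 1 was higher (2.09%). In epithelium-like barcodes the median over 58 members was 0.33, against 0.04 over all genes, with 14 below 0 (44.9% of all genes); 10 were higher (3.07% of all genes) and 0 lower (3.25%). Without barcodes that held lineage genes of other classes, an alternative chosen after seeing the data, the medians were 0.33 in epithelium-like, -0.54 in mesenchyme-like and -0.69 in glia-like barcodes. No replicate exists from which to judge the spread of these medians.

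The medians of the smaller classes also lay below 0, on fewer members and barcodes. In endothelium-like barcodes 12 of 40 members were lower (2.72% of all genes) and 3 higher (4.08%), with a median of -0.58. In pericyte- or smooth-muscle-like barcodes 20 of 34 were lower (3.56%) and 1 higher (4.14%), with a median of -1.20. In macrophage-like barcodes 10 of 27 were lower (3.34%) and 5 higher (8.56%), with a median of -0.49. Below 0 lay 29 of 40 endothelium-like members (49.4% of all genes), 31 of 34 pericyte- or smooth-muscle-like (48.4%) and 16 of 27 macrophage-like ones (48.5%). Cycling shares were 39.7% in wild-type and 54.8% in mutant endothelium-like barcodes. They were 41.3% and 40.0% in pericyte- or smooth-muscle-like and 43.5% and 27.1% in macrophage-like ones. In barcodes not called cycling the medians were 0.40 over 8, -1.71 over 9 and -0.15 over 7 members, in the same order. Given as values only, in neuron-like barcodes 25 of 40 were lower (11.6%) and 0 higher (2.4%), and in erythroid-like barcodes 16 of 20 were lower and 1 higher; there 88.4% of all genes were lower and 0.553% higher, so the members' count stands near that of all genes.

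**Figure D2:**
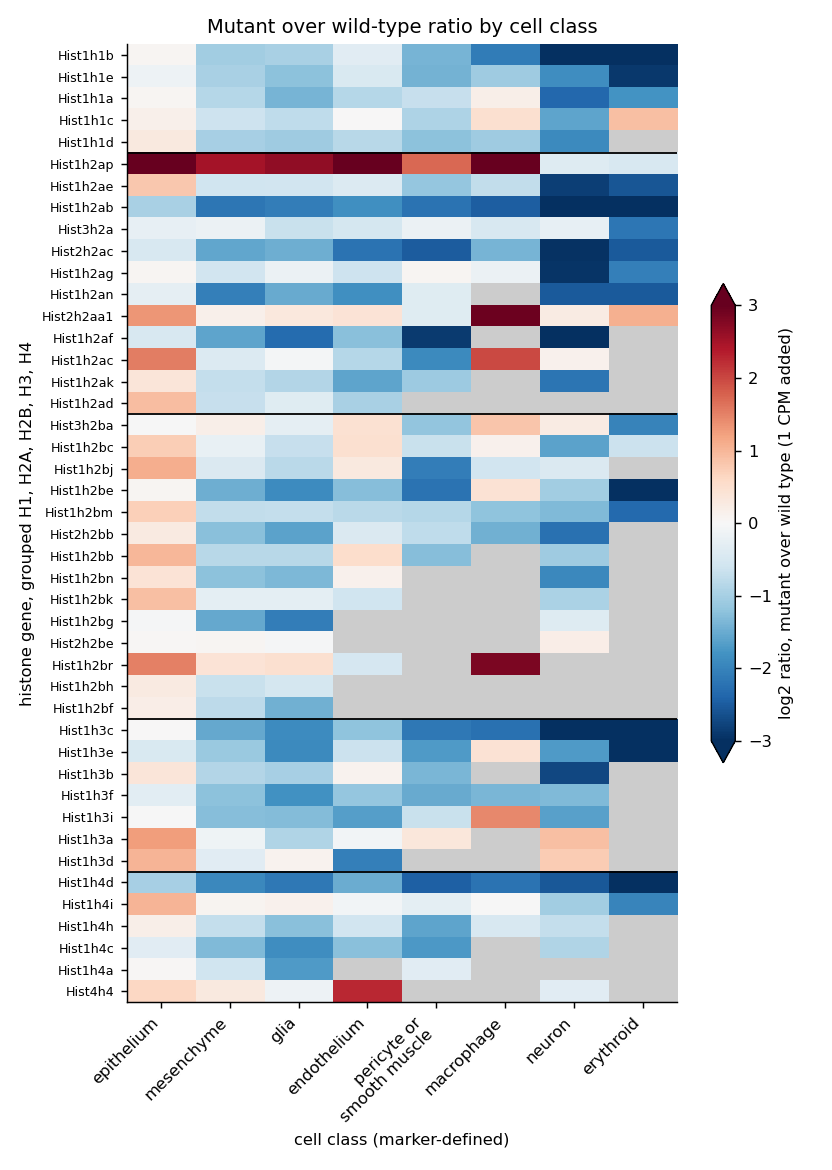
Log2 ratio of mutant over wild-type level (colour, 1 CPM added) for the 44 members with at least 300 UMIs, in rows grouped H1, H2A, H2B, H3 and H4, in 8 cell classes; grey marks under 10 UMIs in the class. Hist1h2ap is red in 6 classes, whereas Hist1h2ab and Hist1h4d are blue in all 8.

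Of the H1 genes, which encode the linker histones, the 5 measured in both mesenchyme-like and glia-like barcodes were below 0 in both, and Hist1h1t, named for the testis form, was near the limit of detection at 22 UMIs in all kept barcodes. Hist1h1b, the most abundant H1 gene, was at 380 CPM in wild-type and 185 CPM in mutant mesenchyme-like barcodes, a log2 ratio of -1.04, and at 457 and 230 CPM in glia-like ones. In epithelium-like barcodes it stood at 92.0 and 96.6 CPM, a log2 ratio of 0.07 with overlapping intervals (85.7 to 98.7 and 92.2 to 101 CPM). Hist1h1d, at 32.8 and 15.9 CPM, also passed 2-fold in mesenchyme-like barcodes. Hist1h1a and Hist1h1e were at -0.86 and -0.97 there, and Hist1h1c at -0.63. Summed over the family, H1 genes stood at 620 and 310 CPM in mesenchyme-like barcodes, at 807 and 384 CPM in glia-like ones and at 196 and 199 CPM in epithelium-like ones.

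Among H2A genes, Hist1h2ap and its near-copies parted. Hist1h2ab stood at 94.0 CPM in wild-type and 20.0 CPM in mutant mesenchyme-like barcodes, a 4.70-fold difference in the direction opposite to Hist1h2ap, although 66.8% of its end is contained in Hist1h2ap. Hist1h2an was at 33.8 and 7.42 CPM, Hist1h2af at 19.0 and 5.70 CPM and Hist2h2ac at 37.5 and 12.2 CPM. Hist1h2ae, the most abundant H2A gene in wild-type mesenchyme-like barcodes, was at 212 and 141 CPM, a log2 ratio of -0.59. Summed over the 13 other H2A genes that share end sequence with Hist1h2ap, the level was 445 CPM in wild-type and 222 CPM in mutant mesenchyme-like barcodes; with Hist1h2ap added, it was 568 and 916 CPM. In glia-like barcodes the same sums were 562 and 288 CPM without Hist1h2ap and 700 and 1169 CPM with it. In CPM, the difference of Hist1h2ap was larger than the summed difference of these other genes. Reads that were assigned to no gene are in neither sum. The part of read assignment in these differences was not tested. Members whose last 300 bases share no word with another gene differed as well. Of the 18 measured in mesenchyme-like barcodes, 14 lay below 0 (43.5% of all genes) and 5 were lower by 2-fold or more (0.715%). Their median was -0.38, and their summed level was 855 and 455 CPM. Hist1h2be was among the 5, although other parts of its transcripts hold the words of Hist1h1e. The stem-loops of Hist1h4d and Hist1h4c lay 770 and 454 bases before their annotated ends. Bases before the last 300 of these members were not searched for shared words. The set therefore does not show that reads from those bases were free of the same uncertainty.

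Many H2B genes face away from a neighbouring H2A gene and share a promoter region with it. Of 16 H2B genes in mesenchyme-like barcodes, 12 lay below 0 (43.5% of all genes) and 4 were lower by 2-fold or more (0.715%). Hist1h2be stood at 25.4 and 8.51 CPM, Hist1h2bg at 8.15 and 2.13 CPM, and Hist2h2bb at 16.2 and 6.20 CPM. Hist3h2ba, the most abundant H2B gene, stood at 45.4 CPM (43.0 to 48.0) and 51.6 CPM (49.6 to 53.6), a 1.14-fold difference. Another view comes from 10 pairs of members with starts within 500 bases of each other that faced away from each other. In mesenchyme-like barcodes Hist1h2ap differed by 2.49 on the log2 scale and its partner Hist1h2br, whose start is 235 bases away, by 0.41, at 2.83 and 4.09 CPM. Hist1h2an was at -2.05 and its partner Hist1h2bp, at 1.56 and 1.66 CPM, at 0.05. Hist2h2ac was at -1.55 and its partner Hist2h2be, at 1.67 and 1.79 CPM, at 0.07. In other pairs the ratios were closer, as for Hist1h2ag at -0.58 and Hist1h2bj at -0.43. In the first 3 of these pairs the H2A gene differed by over 2-fold and its H2B partner did not, and in 2 others it was the reverse: Hist1h2bg was at -1.55 with Hist1h2ae at -0.59, and Hist1h2bn at -1.22 with Hist1h2ak at -0.72. The H2B partners of the first 3 pairs were at low levels, where the added 1 CPM draws ratios toward 0.

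Among H3 genes, 9 of 11 lay below 0 in mesenchyme-like barcodes (43.5% of all genes) and 4 were lower by 2-fold or more (0.715%). Hist1h3c, the most abundant, stood at 92.7 and 31.6 CPM there, at 97.4 and 25.4 CPM in glia-like and at 20.8 and 20.9 CPM in epithelium-like barcodes. Hist1h3e was at 32.8 and 14.7 CPM and Hist1h3i at 17.4 and 6.64 CPM in mesenchyme-like barcodes. Hist2h3b, at 1.12 and 2.05 CPM, had the largest log2 ratio of the family there, 0.52.

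Among H4 genes, which all encode the same core histone, 9 of 12 lay below 0 in mesenchyme-like barcodes (43.5% of all genes) and 2 were lower by 2-fold or more (0.715%). Hist1h4d, whose end is unique, stood at 163 CPM (159 to 168) in wild-type and 42.2 CPM (40.4 to 44.0) in mutant mesenchyme-like barcodes, a 3.87-fold difference. In glia-like barcodes it was at 265 and 59.4 CPM, and in epithelium-like ones at 68.5 and 33.9 CPM, just short of 2-fold on the scale used, at -0.99. Hist1h4c was at 21.5 and 7.94 CPM in mesenchyme-like barcodes. Hist1h4i did not follow: it stood at 34.2 and 36.3 CPM there, at 34.1 and 37.5 CPM in glia-like and at 12.2 and 25.7 CPM in epithelium-like barcodes.

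The direction was then compared across classes, since Emx2 was at or near 0 in the other compared classes. Emx2 RNA at this stage does not show whether Cre acted earlier in these cells. Gli1 stood at 5.36 and 5.26 CPM in mesenchyme-like and at 4.26 and 3.33 CPM in glia-like barcodes. It was at 1.21 and 5.50 CPM in pericyte- or smooth-muscle-like and at 0 and 0.380 CPM in endothelium-like ones, and at 0 in macrophage-like ones of both libraries. The values of these small classes rest on very few Gli1 UMIs. All pericyte- or smooth-muscle-like barcodes together held 828000 UMIs in wild type and 1090580 in the mutant. In all 8 compared classes 19 members could be measured, and none was higher or lower by 2-fold or more in every one; of 6285 genes measured in all 8, 0.0318% were higher and 0.0636% lower in every class. Without the neuron-like and erythroid-like classes, a choice made after their values were seen, 26 members could be measured in all 6. Hist1h2ap alone was higher in all 6, at log2 ratios of 1.73 to 3.90, and 0 were lower in all 6 (0.0699% and 0.0466% of 8586 genes). Counting direction alone, 6 of the 26 lay below 0 in all 6 classes (7.38% of genes) and 1 above (8.68%). The 6 were Hist1h2ab (-2.46 to -0.97), Hist1h4d (-2.44 to -0.99), Hist2h2ac (-2.51 to -0.49), Hist1h3f (-1.82 to -0.32), Hist1h1e (-1.42 to -0.16) and Hist3h2a (-0.66 to -0.17). Hist1h2ab and Hist1h4d missed 2-fold in epithelium-like barcodes only, and under median-of-ratios scaling these 2 members were lower in all 6.

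Genes other than histones also differed one way in every class. By the same log2 ratio the 5 genes furthest above 0 in their least changed class were Gstp1, a glutathione transferase (1.45 to 2.70), Gm10076 (1.35 to 2.15), Pink1, a mitochondrial kinase (0.23 to 1.19), Gadd45a, a stress-response gene (0.19 to 1.11), and Ubb, a polyubiquitin gene (0.18 to 0.52). Those furthest below 0 were Wdr89 (-2.94 to -1.21), Snhg3, a host gene of small nucleolar RNA (-3.17 to -1.20), Gm11808 (-1.91 to -1.08), Gm42418 (-1.81 to -0.93) and Ftl1-ps1, a ferritin pseudogene (-1.12 to -0.90). The part of the kit version and of the Cell Ranger version in these ratios and in that of Hist1h2ap was not tested.

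Levels of histone RNA were highest in cycling barcodes. Each barcode was thinned to 2000 UMIs and called cycling where it held at least 4 UMIs from lists of 34 S phase and 38 G2/M genes that contain no histone. It was called S phase where the S list gave more UMIs, otherwise G2/M. A barcode with equal UMIs from both lists was thus called G2/M, and that group can hold cells still in S phase. A higher level in the G2/M call therefore does not place the RNA after S phase. In mesenchyme-like barcodes, taking the mean of both libraries, the median member was higher by 1.51 on the log2 scale in S phase than in barcodes not called cycling, with 39 of 60 members higher by 2-fold or more (2.34% of all genes), and by 2.59 in G2/M, with 54 of 61 (3.4%). In glia-like barcodes the medians were 1.35 and 3.31, with 26 of 38 (4.58%) and 40 of 45 members (5.91%) higher. In epithelium-like barcodes they were 1.18 and 2.13, with 31 of 54 (3.31%) and 49 of 56 (3.64%) higher. Each library alone gave the same direction in mesenchyme-like barcodes, with S phase medians of 1.74 and 1.32 and G2/M medians of 2.76 and 2.50 in wild type and mutant.

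The largest S phase ratios in mesenchyme-like barcodes, among members with at least 50 UMIs, belonged to Hist1h2ap (5.06), Hist1h1b (4.54), Hist1h2ab (3.86), Hist1h2an (3.73) and Hist1h2ae (3.48). Hist1h2ap stood at 4.12 CPM in wild-type barcodes not called cycling, 137 CPM in S phase and 337 CPM in G2/M, and at 21.5, 778 and 2067 CPM in the mutant ones. Hist1h1b had 15.4, 346 and 1106 CPM in wild-type barcodes and 5.48, 186 and 565 CPM in the mutant. Both were higher in cycling barcodes of both libraries while differing between the libraries in opposite directions. The smallest ratios belonged to Hist3h2a (-0.70), Hist3h2ba (-0.50), Hist2h3c1 (-0.42), Hist2h2be (-0.11) and Hist1h2bc (-0.06). Hist3h2ba was at 48.7 CPM in wild-type barcodes not called cycling and 38.4 CPM in S phase, and at 59.0, 37.0 and 49.2 CPM in the 3 mutant groups, so it was no higher in cycling barcodes. It was the member with the highest level in neuron-like barcodes, at 255 CPM in wild type and 301 CPM in the mutant, where only 2 of 67 mutant barcodes were called cycling.

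Cycling barcodes were also split in 3 by the share of S-list UMIs among cycle-list UMIs, a split added after the data were seen. The summed level of the members in mesenchyme-like barcodes was 901 CPM in wild-type and 819 CPM in mutant barcodes with mostly S-list UMIs, 5809 and 5658 CPM in those with both lists, and 4390 and 3803 CPM in those with mostly G2/M-list UMIs, against 335 and 270 CPM in those not cycling. The totals of the libraries were thus close in barcodes with both lists. Without Hist1h2ap they were not: the other members summed to 5369 CPM in wild-type and 2833 CPM in mutant barcodes with both lists, while Hist1h2ap alone was at 440 and 2825 CPM. In glia-like barcodes with both lists the totals were 5058 and 5139 CPM, and 4676 and 2648 CPM without Hist1h2ap. In epithelium-like barcodes they were 2389 and 3290 CPM, and 2217 and 1621 CPM without it.

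**Figure D3:**
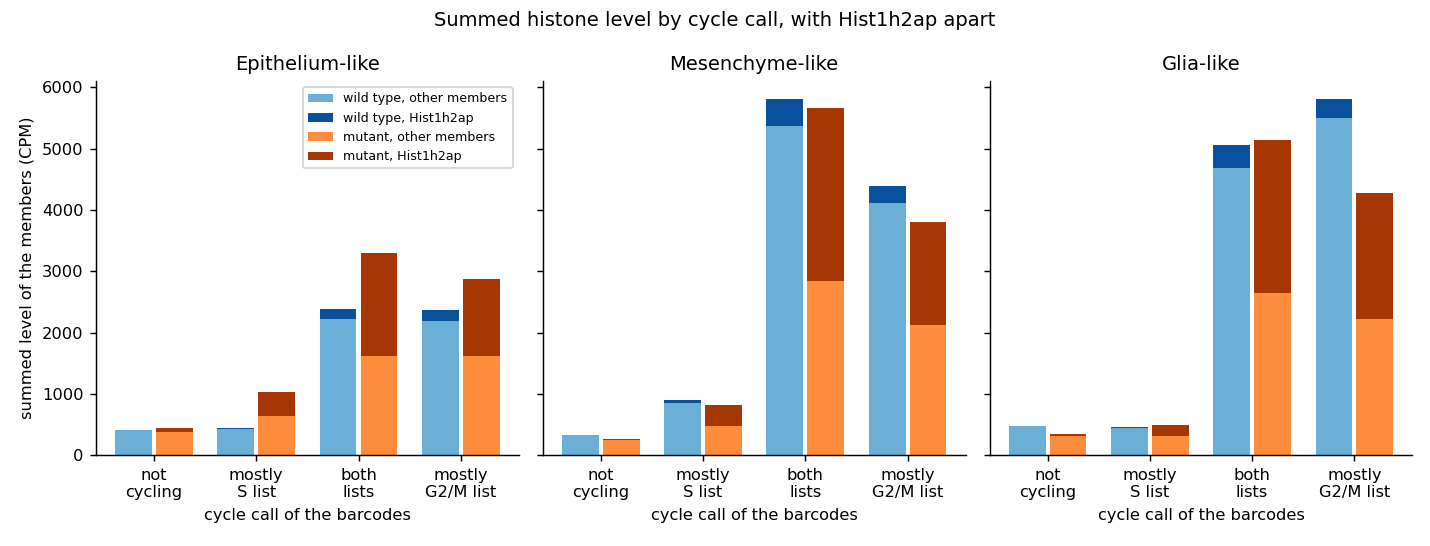
Summed level of the 62 histone genes (CPM) in barcodes grouped by cycle call, for 3 cell classes; blue bars are the wild-type and orange bars the mutant library, and the dark part of each bar is Hist1h2ap alone. In mesenchyme-like barcodes with both lists the bars reach 5809 and 5658 CPM, and the dark part is 440 and 2825 CPM.

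The share of cycling barcodes was similar in both libraries for mesenchyme-like barcodes, at 43.1% (95% Clopper-Pearson interval 41.4 to 44.7) of 3437 in wild type and 41.1% (39.7 to 42.4) of 5140 in the mutant. In glia-like barcodes it was 49.0% (44.2 to 53.8) and 53.6% (48.8 to 58.3). In epithelium-like barcodes it was 25.7% (22.5 to 29.0) of 717 in wild type and 40.1% (37.3 to 42.9) of 1192 in the mutant, with 16.9% and 16.4% of barcodes at 3 or 4 UMIs, next to the threshold, and 327 mutant barcodes were too shallow to call; without barcodes that held lineage genes of other classes it was 16.8% and 41.4%. The part of free RNA in these calls was not tested. In the unnamed clusters, which entered no class, 56.8% of 764 wild-type and 57.5% of 174 mutant barcodes were called cycling. Some of these clusters scored nearest to epithelium, so the epithelium-like shares depend on which clusters were named.

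The epithelium-like median differed between cycle calls and with how they were weighted. When both libraries were weighted to the same mix of cycle calls, the epithelium-like median moved from 0.33 to -0.018, while that of mesenchyme-like barcodes was -0.51 and that of glia-like barcodes -0.67. This weighting counts each call by its share of barcodes, whereas the unweighted level counts it by its UMIs. It also leaves out barcodes too shallow to call, so the move does not isolate the mix. Within epithelium-like barcodes called G2/M the median was -0.36, with 4 of 54 members higher (3.88% of all genes) and 8 lower (5.76%), and within those called S phase it was 0.69, with 17 of 45 higher (10.4%) and 0 lower (5.12%). Barcodes not called cycling gave 0.048, with 4 of 44 higher (3.19%) and 3 lower (2.72%). Only 58 wild-type epithelium-like barcodes were called S phase, and 37 of the wild-type ones held mostly S-list UMIs. Hist1h2ap was higher in the mutant library in all 3 calls of this class, by 4.17 in S phase, 2.88 in G2/M and 3.50 in barcodes not called cycling.

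In mesenchyme-like barcodes the members were lower within each call. In S phase the median was -0.53, with 13 of 56 lower (1.43% of all genes) and 2 higher (0.947%); in G2/M it was -0.55, with 17 of 61 lower (2.01%) and 1 higher (0.645%); in barcodes not called cycling it was -0.16, with 4 of 54 lower (0.633%) and 1 higher (0.71%). In glia-like barcodes the S phase median was -0.51, with 5 of 32 lower (2.28%) and 4 higher (5.33%), the G2/M median -1.13, with 26 of 44 lower (3.29%) and 1 higher (3.42%), and the median of barcodes not called cycling -0.63, with 6 of 17 lower (2.69%) and 1 higher (4.03%). Adding 1 CPM draws the ratios of members with low levels toward 0.

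Members with and without an annotated poly(A) signal differed in their ratios, a split chosen after the ratios were seen and given as a description. Some members count as without a signal on a short annotation, past whose end no bases were searched. In mesenchyme-like barcodes the 16 members with the signal had a median of -0.015, with 1 lower by 2-fold or more, and the 45 without it a median of -0.72, with 15 lower (0.715% of all genes) and 41 below 0 (43.5%). In glia-like barcodes the medians were -0.28 over 13 and -0.98 over 37 members. In epithelium-like barcodes they were 0.18 over 15 and 0.35 over 43 members. The same split separated the cycle ratios: in mesenchyme-like barcodes G2/M exceeded barcodes not called cycling by 1.86 in the members with a signal and by 3.18 in those without. Hist3h2ba, Hist3h2a, Hist2h2be, Hist4h4 and Hist1h4i were among the members with a signal. So were Hist1h2ae (-0.59), Hist1h1c (-0.63), Hist1h4h (-0.71) and Hist1h4a (-0.59), at these log2 ratios in mesenchyme-like barcodes. There 8 of the 16 lay below 0, and the 16 summed to 427 CPM in wild type and 320 CPM in the mutant. Several of the 16, such as Hist1h1t and Hist2h3c1, were at low levels, where the added 1 CPM draws ratios toward 0. Hist1h2be, at -1.47, was the member with a signal that was lower by 2-fold or more in mesenchyme-like barcodes.

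**Figure D4:**
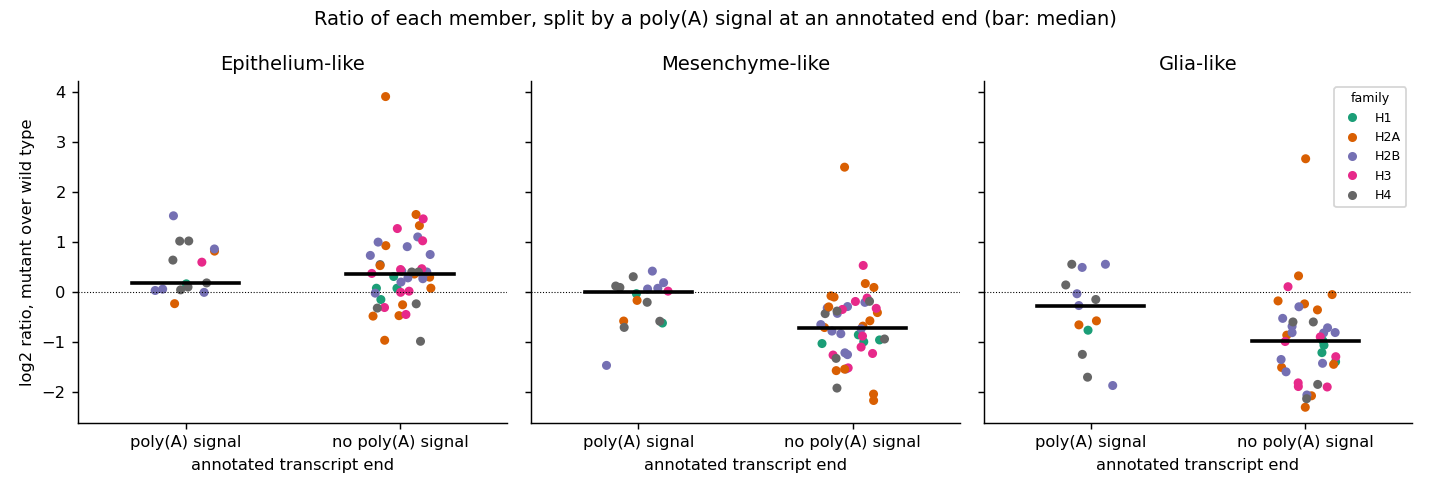
Log2 ratio of mutant over wild-type level (vertical axis, 1 CPM added) of each measured member in 3 cell classes, split by whether the last 60 bases of an annotated transcript hold a poly(A) signal (horizontal axis); points are genes coloured by family and bars are medians. In mesenchyme-like barcodes the medians are -0.015 with a signal and -0.72 without, and Hist1h2ap is the single point above 2.

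Promoters were compared because most members were higher together in cycling barcodes. RefSeq promoters on GRCm38.p6, from 250 bases before to 50 bases after the start, were matched to 57 of the 62 members, and each motif was sought on both strands. A gene counted where any of its promoters held the motif. CCAAT occurred in 49 of 57 members (86.0%) against 41.1% of 27025 genes with a promoter. It occurred in every matched H1, H2A, H2B and H3 gene and in 3 of 11 H4 genes. TATAAA occurred in 32 of 57 (56.1%) against 15.7%. The octamer ATTTGCAT, a site known from H2B promoters, occurred in 6 of 16 H2A and 6 of 14 H2B genes and in no H1, H3 or H4 gene, against 1.97% of all these genes. Members of a pair that face away from each other share part of the searched bases. A site there can count for both genes, so the counts of such pairs are not independent. AAACACA, the H1 box, occurred in 5 of 6 H1 genes against 8.22% of all genes with a promoter. The promoter stretches of the pair of members most abundant over both libraries, which differed between the libraries in opposite directions, are shown with 3 motifs in capitals: the CCAAT box in either orientation, the H1 box and the TATA box.
Hist1h2ap (chr13:21833508-21833725, minus strand): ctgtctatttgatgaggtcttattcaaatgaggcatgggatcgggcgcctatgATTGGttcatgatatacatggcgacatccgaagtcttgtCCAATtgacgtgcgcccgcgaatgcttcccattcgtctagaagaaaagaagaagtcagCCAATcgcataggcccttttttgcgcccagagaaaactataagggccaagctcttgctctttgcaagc
Hist1h1b (chr13:21780626-21780875, minus strand): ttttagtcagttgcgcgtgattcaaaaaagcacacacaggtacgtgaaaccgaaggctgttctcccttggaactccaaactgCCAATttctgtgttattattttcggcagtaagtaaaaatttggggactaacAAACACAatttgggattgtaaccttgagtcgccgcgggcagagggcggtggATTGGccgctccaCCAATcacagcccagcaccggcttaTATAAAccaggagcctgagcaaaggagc
Both hold 3 CCAAT boxes counting both strands, and Hist1h1b also holds the H1 box and TATAAA. A match is a description of these letters and not evidence of binding.

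Genes that act on histone mRNA and protein were described from 3 lists. In mesenchyme-like barcodes none of 18 genes of histone mRNA transcription and processing, 18 histone chaperones and 11 measured replacement histones was higher or lower by 2-fold or more, with medians of -0.07, 0.10 and 0.18. Slbp, which binds the stem-loop, stood at 200 and 204 CPM, and Npat, the coactivator of histone gene transcription, at 27.8 and 26.2 CPM. In glia-like barcodes none of 17, 18 and 11 genes passed 2-fold, with medians of 0.16, 0.11 and 0.08. In epithelium-like barcodes 1 of 18 processing genes, 4 of 18 chaperones and 2 of 11 replacement histones were higher (3.07% of all genes) and none lower, in a class where 25.7% of wild-type and 40.1% of mutant barcodes were called cycling; the part of cycling in these levels was not tested. These were Ccne2, a cyclin of the entry into S phase (4.99 and 11.1 CPM), the chromatin assembly genes Chaf1a (11.3 and 26.4 CPM), Chaf1b (7.36 and 17.3 CPM) and Asf1b (6.06 and 14.6 CPM), Mcm2, a helicase subunit that also binds histones and is on the S list (17.6 and 37.2 CPM), the variant H2afx (119 and 253 CPM) and Cenpa, the centromeric H3 (48.3 and 115 CPM). The main replacement H3 genes H3f3a (1804 and 2047 CPM) and H3f3b (1673 and 1975 CPM) were abundant in mesenchyme-like barcodes of both libraries. H3f3c and H4c16 are listed but were not found by symbol, and H2al2a was at 0 or 1 UMI.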

How the data were processed

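Members and gene lists were chosen with earlier results of these data known. The authors deposited UMI counts, whole numbers per gene and barcode, from Cell Ranger 6.0.0 (wild type) and 5.0.1 (mutant), per the file headers, on mm10, per the submitters' processing notes. Barcodes were kept from 1000 UMIs and 500 genes upwards, with mitochondrial UMIs up to 10%; Scrublet called 0 doublets in each library, so the top-scored 0.8% per 1000 barcodes were removed (332 and 703). Clusters (scanpy 1.11.5, Leiden resolution 1, 2000 variable genes, 30 components, without histone, histone pathway, cycle and mitochondrial genes) were named from fixed markers where the best class scored 1.5 times the next; that rule was settled after seeing the clusters, and 7 of 34 stayed unnamed. Named classes are rebuilt and may differ from the study's. UMIs were summed per library and class and scaled to CPM. With 1 library per group no model was fitted and no ratio was tested statistically; the ratio calculation was checked on simulated counts. Named genes were members with at least 300 UMIs in kept barcodes, those 2-fold one way everywhere, the 5 largest and 5 smallest S phase ratios among members with at least 50 UMIs, members 2-fold in opposite directions, the list genes and 5 other genes per direction; further members with extreme ratios or promoter partners were named after their values were seen. Transcript ends came from GENCODE vM21. Alternatives concerned scaling, pseudocount, UMI minimum, depth floor, doublets, clustering and cycle calls.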

Additional observations from a re-analysis of the deposited data

Results flagged for a closer look

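Among the members, 5 were higher by 2-fold or more in 1 cell class and lower by 2-fold or more in another, with 1 library for each genotype, so the differences between classes were not tested; several of these classes hold few UMIs. Of 58 members measured in at least 2 classes these were 8.62%, against 5.56% of 15652 genes; without the neuron-like and erythroid-like classes they were 4 members (6.90%) against 1.29% of 15417 genes. Hist1h2ac had a log2 ratio of 1.99 in macrophage-like and -1.91 in pericyte- or smooth-muscle-like barcodes, 3.90 apart. Hist1h2bj was at 1.09 in epithelium-like and -2.08 in pericyte- or smooth-muscle-like barcodes, 3.18 apart. Hist1h3i was at 1.43 in macrophage-like and -1.66 in endothelium-like barcodes, 3.09 apart. Hist1h3d was at 1.02 in epithelium-like and -2.05 in endothelium-like barcodes, which lie 3.06 apart. Hist1h4i was at 1.01 in epithelium-like and -1.97 in erythroid-like barcodes, 2.98 apart; the latter equals the median of all genes in that class (-1.97), whose ratios are given as values only.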

How the results depend on the processing

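No paired analysis was possible because each genotype has 1 library. Hist1h2ap was higher in the mutant library in each alternative run, by log2 2.88 to 4.19 in epithelium-like, 2.13 to 2.69 in mesenchyme-like and 2.49 to 3.52 in glia-like barcodes. The medians of mesenchyme-like and glia-like barcodes stayed below 0 in all alternatives run; the smallest were -0.16 (mesenchyme-like, barcodes not called cycling) and -0.51 (glia-like, S phase). The epithelium-like median, 0.33, was 0.087 at Leiden resolution 2, 0.69 in S phase, 0.048 in barcodes not called cycling, and below 0 in G2/M (-0.36) and with the same mix of cycle calls (-0.018; with the call at 3 UMIs 0.035, at 6 UMIs -0.066, both added after seeing the data).
The 10 higher epithelium-like members became 1 with 5 CPM added, 17 in S phase, 4 in G2/M, 4 in barcodes not called cycling, and 4, 6 and 3 with the same mix at 4, 3 and 6 UMIs. The 0 lower ones became 2 under median-of-ratios scaling, 0.5 CPM added, a common UMI floor, no doublet removal, Leiden resolution 2, a marker gate and the same mix at 4 or 3 UMIs, 5 at 6 UMIs, 8 in G2/M, 3 in barcodes not called cycling and 1 without mixed barcodes (added). In every compared class, 2 members instead of 0 were lower under median-of-ratios scaling, the common floor, no doublet removal, Leiden resolution 2 and the marker gate, and 1 without mixed barcodes. The 16 lower mesenchyme-like members became 9 with 5 CPM added and 4 in barcodes not called cycling, and the 1 higher became 2 in S phase. The 20 lower glia-like members became 5 in S phase and 6 in barcodes not called cycling; the 1 higher became 4 in S phase and 2 without mixed barcodes. Hist3h2ba in mesenchyme-like barcodes, at 0.18, was at -0.026 without doublet removal and -0.049 in S phase.
Cycling shares moved with the call. At 3 UMIs, wild type and mutant were 37.5% and 51.6% (epithelium-like), 54.2% and 52.8% (mesenchyme-like) and 57.9% and 61.6% (glia-like); at 6 UMIs 15.8% and 32.8%, 32.1% and 29.2%, and 38.7% and 42.6%; from unthinned UMIs 21.3% and 34.0%, 37.0% and 35.1%, and 43.7% in wild-type glia-like barcodes. Under the common floor they were 32.1% in wild-type epithelium-like, 45.9% and 44.8% in mesenchyme-like barcodes; at Leiden resolution 2 33.5%, 47.0% and 47.1%. The wild-type epithelium-like share was 30.2% with the marker gate and 16.8% without mixed barcodes, which gave 40.2% in wild-type mesenchyme-like barcodes. Epithelium-like clusters present in both libraries gave 49.3% in the mutant, and mesenchyme-like barcodes without 2 clusters held mostly by 1 library gave 39.2% and 39.5% (both added). The causes were not tested. Removing mixed barcodes by all markers left 6 wild-type epithelium-like and 4 glia-like barcodes, so no value is given. Counting error is small beside the difference between single libraries, whose spread is unknown; members under 300 UMIs are the least precise.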

Other observations

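The pattern of Hist1h2ap also appeared in barcodes that entered no comparison. In melanocyte-like barcodes, 45 wild-type and 23 mutant ones, Hist1h2ap made up 4.39% and 34.8% of member UMIs, and the members other than Hist1h2ap summed to 1020 and 455 CPM. In unnamed clusters, 764 wild-type and 513 mutant barcodes of median depth 8580 and 1626 UMIs, it made up 7.31% and 31.4%, and there the other members were at 629 and 1025 CPM, the opposite direction; nearly all these barcodes lie in clusters found in 1 library.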
